A study of Mus musculus with 29 samples.

Results

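Ifitm1, Ifitm2, Ifitm3 and Ifitm6 were 4 genes taken by their family name, with no threshold on their values, from the 19704 genes of the young brain tables, the 27514 of the aged brain tables and the 16623 of the blood tables. Their level was determined in every annotated cell type as CPM, the counts of a gene summed over the cells of 1 type in 1 library, per 1000000 counts of those cells. The series profiled C57BL/6J mice by Drop-seq, a droplet method for single-cell RNA, after a sham operation or an experimental stroke, which the study made by transient occlusion of the middle cerebral artery. It holds 29 libraries in 9 groups, 18 from brain and 11 from blood. In young males aged 8 to 10 weeks, brain was taken after sham surgery at day 2 (4 libraries), after stroke at day 2 (4 libraries) and after stroke at day 14 (4 libraries), and blood was taken in the same 3 conditions (4, 4 and 3 libraries). In aged mice of 17 to 20 months, brain was taken after sham surgery at day 2 (2 libraries, 1 male and 1 female), after stroke at day 2 (3 libraries, 1 male and 2 female) and after stroke at day 14 (1 female library). Sham mice were taken at day 2 only, and their libraries are the reference for day 14 as well. Each brain library pooled 4 to 5 hemispheres and was sorted for CD45-high leukocytes, microglia and endothelial cells, and each blood library pooled 2 mice after red cell lysis and Ter-119 depletion. Brilliant Blue G and actinomycin D were present while the cells of every library were isolated, and AP-5 was added for brain. Since the labels do not say that libraries of a group were separate experiments, p-values measure the spread between these libraries, which may be partly technical.

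The interferon-induced transmembrane (IFITM) proteins are small membrane proteins that hinder the fusion of enveloped viruses with cell membranes. Interferon binding to its receptors activates JAK kinases, STAT proteins and interferon regulatory factors, which raise the transcription of Ifitm genes together with that of many other interferon-stimulated genes. IFITM3 acts mainly in endosomes and IFITM1 nearer the cell surface, and some members are also present in leukocytes and endothelial cells that have met no virus.

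The 4 genes lie close together on chromosome 7 of the mouse, in RefSeq annotation of GRCm38.p6, the build that the submitters' notes name as mm10. Ifitm2 spans chr7:140954837-140959686, Ifitm1 chr7:140967429-140969827, Ifitm3 chr7:141009590-141010744 and Ifitm6 chr7:141015812-141016892. All 4 symbols matched the RefSeq promoter table. The 100 bases around each start that this table lists, 70 before it and 30 from it on, are shown because the members moved together in several cell types, and capitals mark 2 motifs searched on both strands. The first reads GAAA, any 2 bases, GAAA, the core of the interferon-stimulated response element (ISRE), bound by interferon regulatory factors, and TTCNNNGAA is the site form bound by STAT proteins.
Ifitm1, chr7:140968006-140968105, plus strand: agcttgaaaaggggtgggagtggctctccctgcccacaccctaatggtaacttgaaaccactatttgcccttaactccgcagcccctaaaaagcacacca
Ifitm2, chr7:140955932-140956031, minus strand: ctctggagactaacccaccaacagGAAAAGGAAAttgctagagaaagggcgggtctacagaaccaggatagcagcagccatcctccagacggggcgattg
Ifitm3, chr7:141010715-141010814, minus strand: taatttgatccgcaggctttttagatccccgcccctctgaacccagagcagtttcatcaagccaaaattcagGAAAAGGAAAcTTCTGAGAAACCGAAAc
Ifitm6, chr7:141016863-141016962, minus strand: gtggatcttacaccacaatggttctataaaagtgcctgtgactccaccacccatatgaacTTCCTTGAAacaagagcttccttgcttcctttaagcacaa

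The Ifitm2 window held 1 ISRE core, 46 to 37 bases before the start. The Ifitm3 window held 2, at bases 3 to 12 and 20 to 29 from the start, and a TTCNNNGAA match at bases 14 to 22 that overlaps the second of them. The Ifitm6 window held a TTCNNNGAA match 10 to 2 bases before the start, and neither motif was found in the Ifitm1 window. For Ifitm1 and Ifitm2 the listed start lies inside the gene span given above, so the upstream end of that span was not searched. Of all 32851 promoters in the table, each read from 250 bases before to 50 after the start, 3.443% held the ISRE core and 8.298% held TTCNNNGAA. These matches describe letters and are not measured binding sites.

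The 106977 cells in all were spread over libraries of 1143 to 5121 cells and 819438 to 5855050 counts in brain, and of 2360 to 6328 cells and 966914 to 5232660 counts in blood. Median counts per cell ran from 321 to 1363 in brain and from 341 to 694 in blood. The authors' cell type names were kept, and a type entered a library's values where it had at least 20 cells. The study's own type had the highest marker level for all types that the results turn on except the blood class of eosinophils and basophils, for which no markers were listed and neutrophil markers were highest, and dendritic cells, where monocyte markers exceeded dendritic ones (766 against 246 CPM per gene in young brain). Libraries shared at most 7 cell barcodes, 0.170% of the smaller library. Counts of Ifitm1, Ifitm2 and Ifitm3 were taken as deposited, and since these genes are close paralogs, reads of one could have been counted for another. In 5 of the 12 young brain libraries (1 sham, 2 at day 2 and 2 at day 14) and 1 blood library at day 2, the median share of mitochondrial counts was under 1%, and with a term for this split in the model no young brain call on a member was lost. The 5 brain libraries were replicate 1 of each young group and replicate 2 of both stroke groups, so replicate number goes in part with this split. All values were summed over the cells of a type and are per count of the same cells, so fewer transcripts in each cell and fewer transcribing cells are not told apart here.

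The members differed in the cells that held them (the plot of levels by cell type). In sham brain, Ifitm1 was at 4691 ± 1308 CPM (SD, n = 4) in granulocytes and at 283 ± 308 CPM (SD, n = 4) in dendritic cells, the next type, and their ranges did not overlap. Ifitm6 had a similar order, with 5792 ± 2127 CPM (SD, n = 4) in granulocytes and 665 ± 213 CPM (SD, n = 4) in monocyte-derived cells, again with no overlap. Ifitm2 stood at 3808 CPM in granulocytes, 1786 CPM in monocyte-derived cells and 934 CPM in dendritic cells, and these 3 ranges did not overlap. Ifitm3 was broader: it was highest in monocyte-derived cells (2691 CPM) and followed by granulocytes, dendritic cells, endothelial cells and border-associated macrophages at 743 to 1468 CPM, whose neighbouring ranges overlapped. Sham microglia held under 10 CPM of every member on average, below the T cell mean of each, which ran from 12.2 to 31.5 CPM. In sham blood, Ifitm1 was highest in neutrophils (9162 CPM) and in the eosinophil and basophil class (8553 CPM), which overlapped, while monocytes held 0.459 CPM of it. Monocytes led for Ifitm3 (3065 CPM) with a range overlapping that of neutrophils (1737 CPM). Blood T, B and NK cells averaged at most 26.5 CPM of any member in the sham group.

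**Figure D1:**
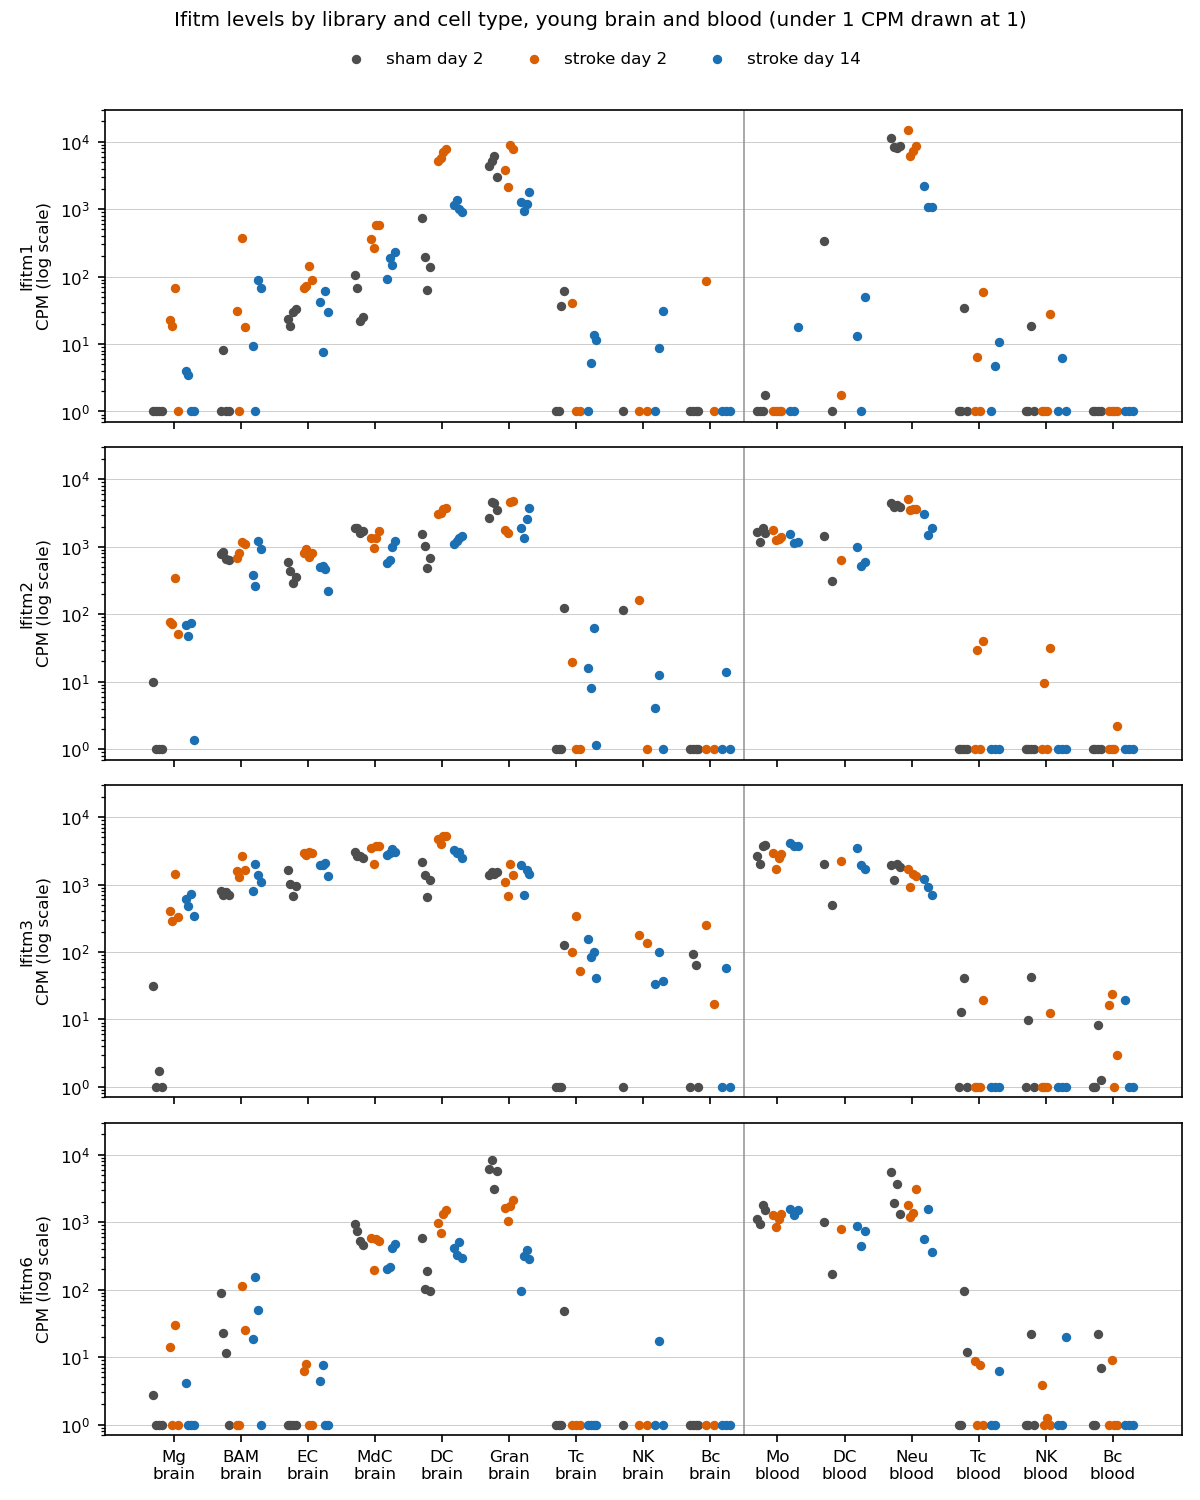
CPM of each member (4 panels, log axis, values under 1 drawn at 1) in every library with at least 20 cells of a type, by selected types of young brain and blood, coloured as sham day 2, stroke day 2 and stroke day 14. Mural cells, the blood class of eosinophils and basophils and other small classes are not drawn. That blood class held 8553 CPM of Ifitm1 in sham, overlapping neutrophils (9162 CPM). Among the types drawn, Ifitm1 and Ifitm6 were highest in granulocytes and neutrophils of sham animals, Ifitm3 was spread over endothelial cells and most myeloid types, and sham microglia lay near the floor for all 4.

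Tests of stroke against sham used edgeR's quasi-likelihood test on summed counts, with Benjamini-Hochberg adjustment over all genes tested in that cell type, and a call is an adjusted p under 0.05. In young brain, 19 member tests in 6 types had enough counts. Of these, 10 were higher and 1 was lower at day 2 against sham. At day 14 against sham 2 were higher and 2 lower, and between the stroke times 0 were higher and 6 lower. By type, 0.687% to 15.7% of all genes were called higher and 0.321% to 15.7% lower at day 2 against sham. These shares were 0% to 13% and 0% to 13.1% at day 14 against sham. Between the stroke times they were 0.381% to 5.07% and 0.457% to 6.14%. The plot of fitted changes shows each member test with its standard error.

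**Figure D2:**
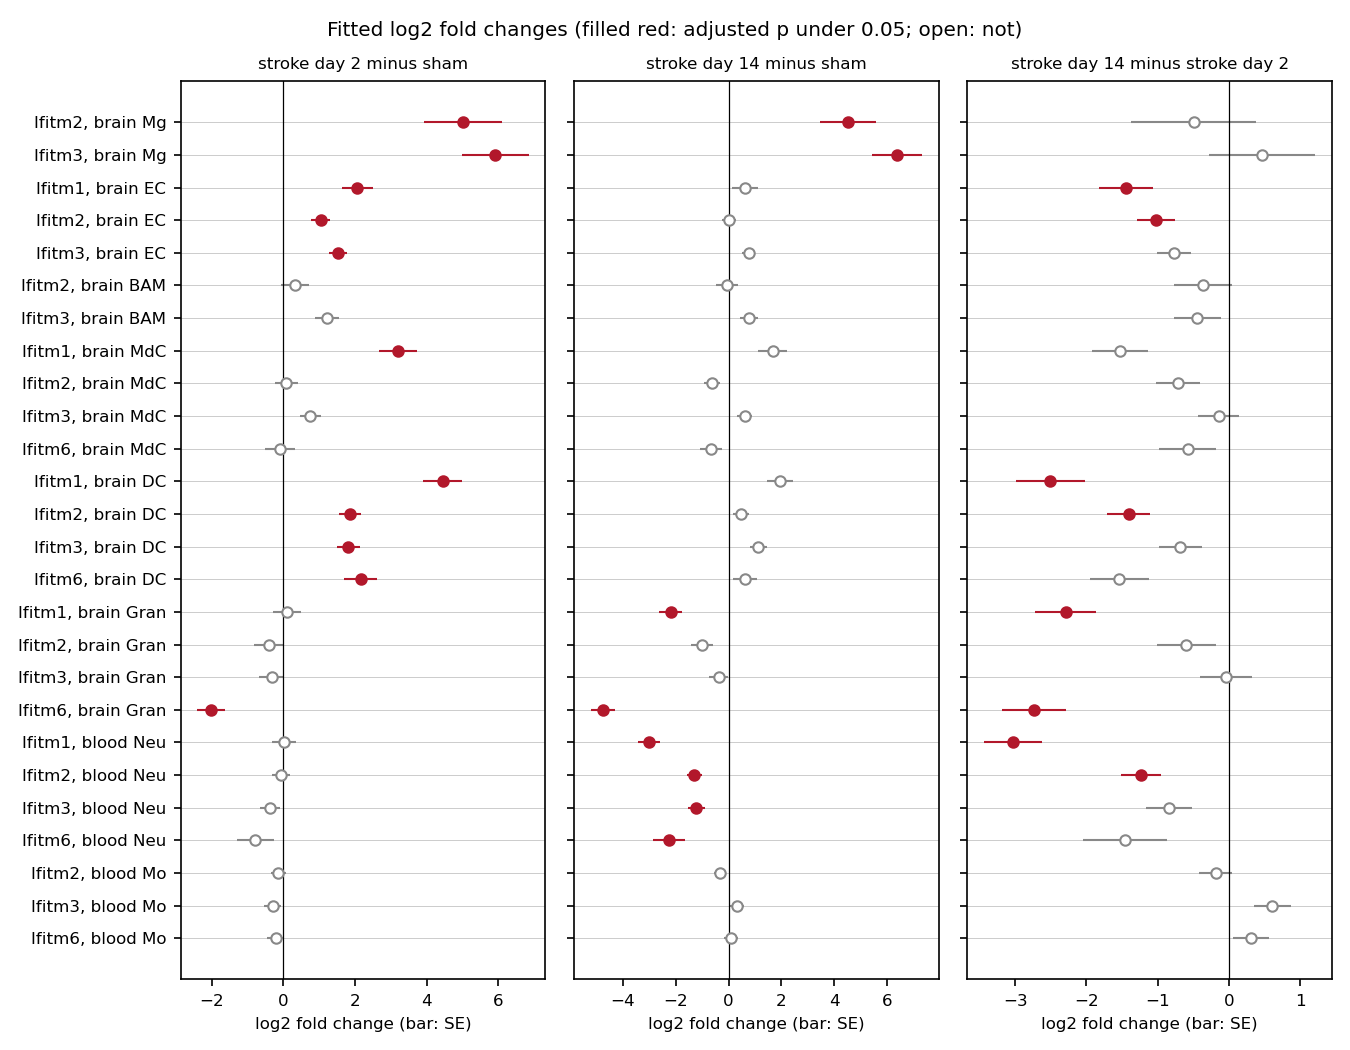
Fitted log2 fold change with its standard error for every member tested in young brain types and in blood neutrophils and monocytes, in 3 panels for day 2 against sham, day 14 against sham and day 14 against day 2. Filled red points have an edgeR adjusted p under 0.05, and tests in other blood types are not drawn. At day 2 against sham 10 young brain points were called higher and 1 lower, and at day 14 against day 2 all 6 called young brain points were lower. By young brain type, 0.687% to 15.7% of all genes were called higher and 0.321% to 15.7% lower at day 2 against sham. At day 14 against day 2, 0.457% to 6.14% were called lower.

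In microglia, the resident macrophages of the brain, Ifitm3 and Ifitm2 rose after stroke from near nothing. Ifitm3 was at 31.6, 0.552, 1.71 and near 0 CPM in the 4 sham libraries, at 407, 283, 1418 and 332 CPM at day 2, and at 616, 473, 712 and 338 CPM at day 14. Every stroke library lay above every sham library at both times. The rise was 5.92 ± 0.94 (log2, SE; edgeR adjusted p = 0.00066) at day 2 and 6.38 ± 0.94 (edgeR adjusted p = 0.0005) at day 14. Both members that could be tested in microglia were called higher at both times. Of all 10145 genes tested, 15.7% were called higher at day 2 and 10.6% at day 14. With sham near 0, both members passed the filter on low counts through the stroke libraries, which favours a call upward. Their count is therefore not read against these shares. Ifitm3 did not differ between day 14 and day 2 beyond the spread (0.46 ± 0.75, edgeR adjusted p = 0.791, with 6.93% of genes called either way), but with counts rounded up it was called higher at day 14 (0.98, edgeR adjusted p = 0.0405).

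Ifitm2 in microglia was at 9.95, 0.550, near 0 and near 0 CPM in sham, at 75.6, 71.1, 340 and 51.3 CPM at day 2, and at 68.6, 47.5, 74.8 and 1.35 CPM at day 14. Day 2 lay wholly above sham, whereas the lowest day 14 library fell within the sham range. The changes were 5.01 ± 1.09 (edgeR adjusted p = 0.00466) and 4.51 ± 1.04 (edgeR adjusted p = 0.0111). Ifitm1 was too low for the test. It was at 22.9, 18.2, 67.9 and near 0 CPM in the day 2 libraries, at 3.96, 3.49, near 0 and near 0 CPM at day 14, and near 0 in all sham libraries. Pooled, 36.4 counts over the day 2 group and 12.2 over the day 14 group stood against none in 10874 sham cells. The pooled levels were 8.27 CPM at day 2 and 1.94 CPM at day 14, beside 12.5 and 9.05 CPM in brain T cells of the same groups, which rest on 1.86 and 5.82 counts. By library, Ifitm1 at day 2 averaged 27.3 ± 28.8 CPM in microglia (SD, n = 4) and 13.5 ± 23.3 CPM in T cells (n = 3), with overlapping ranges, so the order of the 2 types is not settled at this depth. Pooled Ifitm3 in T cells was 118 and 84.8 CPM, against 349 and 550 CPM in microglia, and pooled Ifitm2 6.12 and 25.5 CPM against 61.4 and 50.5 CPM; free RNA in the droplets was not estimated. Ifitm6 stayed under the filter, with group means of at most 11.1 CPM.

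The day 2 library of replicate 3 stood apart. It held 58 microglia, 56 of them of the subtype Mg4, its summed microglia markers reached 817 CPM against 10392 to 12466 CPM in the other day 2 libraries, and its monocyte markers reached 839 CPM against at most 133 CPM. Without it the day 2 changes were 5.44 for Ifitm3 (edgeR adjusted p = 0.00158) and 4.67 for Ifitm2 (edgeR adjusted p = 0.0093). The size of each change depended on sham replicate 1, the only sham library above 5 CPM of either gene, and without it the changes were 9.19 and 7.99 at day 2 and 9.66 and 7.49 at day 14. Microglia markers summed to 14610 to 21335 CPM in sham and 9815 to 13705 CPM at day 14, neutrophil markers to 176 to 595, 14.7 to 156 and 136 to 225 CPM in sham, day 2 and day 14, and their part in the result was not tested.

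Mean Ifitm3 was also higher after stroke within the subtypes Mg1 and Mg2. In Mg1, the largest in sham, its mean went from 6.96 CPM in sham to 129 CPM at day 2 and 118 CPM at day 14. Mg2 gave 5.36, 114 and 66.8 CPM, the last from 1 library. Higher levels were found in Mg4, which held 1034 of the day 2 cells (691 CPM there, 10.7 CPM in sham), and in Mg3, which held 3415 of the day 14 cells (619 CPM). Mg1 numbered 5826 cells in sham and 335 and 321 after stroke, so the mixture of subtypes changed along with the level in each. Subtypes were made from the same cells and these values carry no test.

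In endothelial cells, which line the vessels, the 3 tested members all rose at day 2, with 6.89% of the 5833 genes tested called higher. Ifitm3 was at 1668, 1008, 670 and 944 CPM in sham, at 2923, 2699, 3028 and 2898 CPM at day 2, and at 1941, 1915, 2054 and 1338 CPM at day 14. The 4 day 2 libraries were narrowly spread and lay above all libraries of the other groups. The change at day 2 was 1.53 ± 0.25 (edgeR adjusted p = 0.00187). The day 14 level was not called against sham (0.76 ± 0.24, edgeR adjusted p = 0.588) and was 0.77 below day 2 on the log2 scale (−0.77 ± 0.24, edgeR adjusted p = 0.0506), with no overlap between the stroke times. That difference was called by DESeq2 (adjusted p = 0.0102) and by edgeR without sham replicate 1 or 3 (up to 0.0385).

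Ifitm1 in endothelial cells was much lower than Ifitm3 and rose as well, from 23.4, 18.6, 29.4 and 32.8 CPM in sham to 68.2, 72.7, 142 and 87.8 CPM at day 2 (2.07 ± 0.42, edgeR adjusted p = 0.00593). Day 14 gave 42.6, 7.59, 60.3 and 29.4 CPM, a fall from day 2 of 1.45 ± 0.38 (edgeR adjusted p = 0.0227), where 6.14% of genes were called lower. Ifitm2 was at 590, 444, 288 and 357 CPM in sham and 800, 923, 716 and 823 CPM at day 2 (1.04 ± 0.27, edgeR adjusted p = 0.0195), and at 499, 516, 470 and 219 CPM at day 14 (−1.03 ± 0.27 against day 2, edgeR adjusted p = 0.022). For all 3 members the ranges at day 2 lay above sham and above day 14. Ifitm6 stayed at or below 7.86 CPM in every endothelial library.

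Against sham, edgeR called 0 endothelial genes at day 14 (0% of genes, with 356 at an unadjusted p under 0.05), so 0 of the 3 members was called, of which 1 reached that unadjusted level, and DESeq2 called none of the 3 either. The day 2 call on Ifitm2 was lost without sham replicate 3 or 4 (edgeR adjusted p up to 0.0787), its fall to day 14 without day 14 replicate 4 or day 2 replicate 2 (up to 0.0557) or the top 10% of cells by counts (0.0529), and the fall of Ifitm1 without day 14 replicate 1, 2 or 4 or day 2 replicate 3 (up to 0.0752). Endothelial markers summed to 18185 to 26545 CPM in sham, 12882 to 16770 CPM at day 2 and 18488 to 21256 CPM at day 14, and monocyte markers to 216 to 354, 132 to 819 and 76.6 to 858 CPM; their part in the result was not tested.

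Among the endothelial subtypes with at least 2 libraries in every group, Ifitm3 was highest in EC5, with means of 2111 CPM in sham, 5358 CPM at day 2 and 2936 CPM at day 14, and lowest in EC1, with 652, 1769 and 1126 CPM. In each of EC1, EC3, EC4 and EC5 the day 2 mean was above both other groups. Ifitm1 was concentrated in EC6, at 526.5 ± 173 CPM (SD, n = 3) at day 2, whereas the other endothelial subtypes with at least 2 day 2 libraries had means between 17.1 and 95.2 CPM. Mural cells, the contractile cells of the vessel wall, were too few for a test. Their pooled Ifitm3 was 446 CPM in 74 sham cells, 3894 CPM in 35 day 2 cells and 1682 CPM in 27 day 14 cells.

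Border-associated macrophages, which line the meninges and perivascular spaces, gave 0 calls on 2 members with edgeR, with 1, 1 and 0 at an unadjusted p under 0.05 at day 2, at day 14 and between the stroke times, and with 2.67% of the 1313 genes tested called at day 2, 0.0762% at day 14 and 0.838% between the stroke times. Ifitm3 was at 809, 693, 764 and 704 CPM in sham, at 1564, 1300, 2654 and 1622 CPM at day 2, and at 812, 2037, 1383 and 1102 CPM at day 14. All day 2 libraries lay above sham, but the difference of 1.23 ± 0.33 missed the threshold (edgeR adjusted p = 0.0604), while DESeq2 gave an adjusted p of 0.0221. A pair of doubtful libraries enter here: sham replicate 4 had summed macrophage markers of 1544 CPM against 10253 to 11801 CPM and monocyte markers of 4019 CPM against 551 to 1039 CPM, and day 2 replicate 3 had monocyte markers of 2989 CPM against 161 to 759 CPM. The difference was 1.15 without the first (edgeR adjusted p = 0.112) and 1.08 without the second (0.114), and it was called without day 14 replicate 1 (0.0494). Ifitm1 had 33.1 counts at day 2 against 1.62 in sham, a ratio of 20.3 with a 95% counting interval of 4.201 to 141, and replicate 3 alone held 378 CPM of it where the others had at most 31.1 CPM.

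In monocyte-derived cells, the infiltrating monocytes and macrophages of the brain, only Ifitm1 was called at day 2, where 5.66% of 8080 genes were called higher. It was at 107, 67.2, 22.3 and 25.6 CPM in sham, at 365, 264, 586 and 590 CPM at day 2, and at 91.2, 189, 149 and 229 CPM at day 14. The day 2 libraries lay above all others. The rise was 3.19 ± 0.53 (edgeR adjusted p = 0.00222) at day 2, against a median of 0.29 over all genes in this fit, and 2.74 without TMM scaling (edgeR adjusted p = 0.00514), where that median was −0.13. Without sham replicate 1, the highest sham library, the rise was 3.96 (edgeR adjusted p = 0.0085). At day 14 Ifitm1 was not called against sham (1.66 ± 0.54, edgeR adjusted p = 0.097, with 5.15% of genes called) or against day 2 (−1.53 ± 0.40, edgeR adjusted p = 0.0683, with 1.79% called). The difference between the stroke times was called by DESeq2 (adjusted p = 0.0115) and by edgeR without day 2 replicate 2 (0.0186).

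The other members were abundant in monocyte-derived cells in every group and none was called with TMM scaling. Ifitm3 averaged 2691 ± 228 CPM in sham, 3226 ± 836 CPM at day 2 and 3014 ± 264 CPM at day 14 (SD, n = 4 each). Ifitm2 averaged 1786, 1343 and 848 CPM and Ifitm6 665, 469 and 323 CPM in the same order. Without TMM scaling, which moved the median of all genes at day 14 against sham from 0.28 to −0.11, Ifitm2 was called lower there (−1.06, edgeR adjusted p = 0.033), and its sham and day 14 ranges did not overlap. Day 2 replicate 2 was the lowest of its group for both Ifitm3 (1983 CPM) and Ifitm6 (197 CPM), and its monocyte markers summed to 3989 CPM against 8452 to 9835 CPM in the other day 2 libraries. Without it the change in Ifitm1 was 3.31 (edgeR adjusted p = 0.00106). Neutrophil markers in these cells reached 3404, 1414, 749 and 0 CPM in the sham libraries, against 114 to 246 CPM at day 2 and 27.7 to 112 CPM at day 14, and their part in the levels was not tested.

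Subtypes of monocyte-derived cells held different members. Ifitm1 at day 2 was highest in MdC5 (1059 ± 356 CPM, SD, n = 4) and lowest in MdC6 (72.5 ± 37.6 CPM, SD, n = 3), which held most of its cells at day 14 (10.2 CPM there). Ifitm3 was highest in MdC4, with 5493 CPM at day 2 and 5415 CPM at day 14, and Ifitm6 in MdC3, with 864 CPM in sham, 1622 CPM at day 2 and 1203 CPM at day 14. MdC1, the largest subtype at day 2 with 2267 cells, had 56.2 CPM of Ifitm6.

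**Figure D3:**
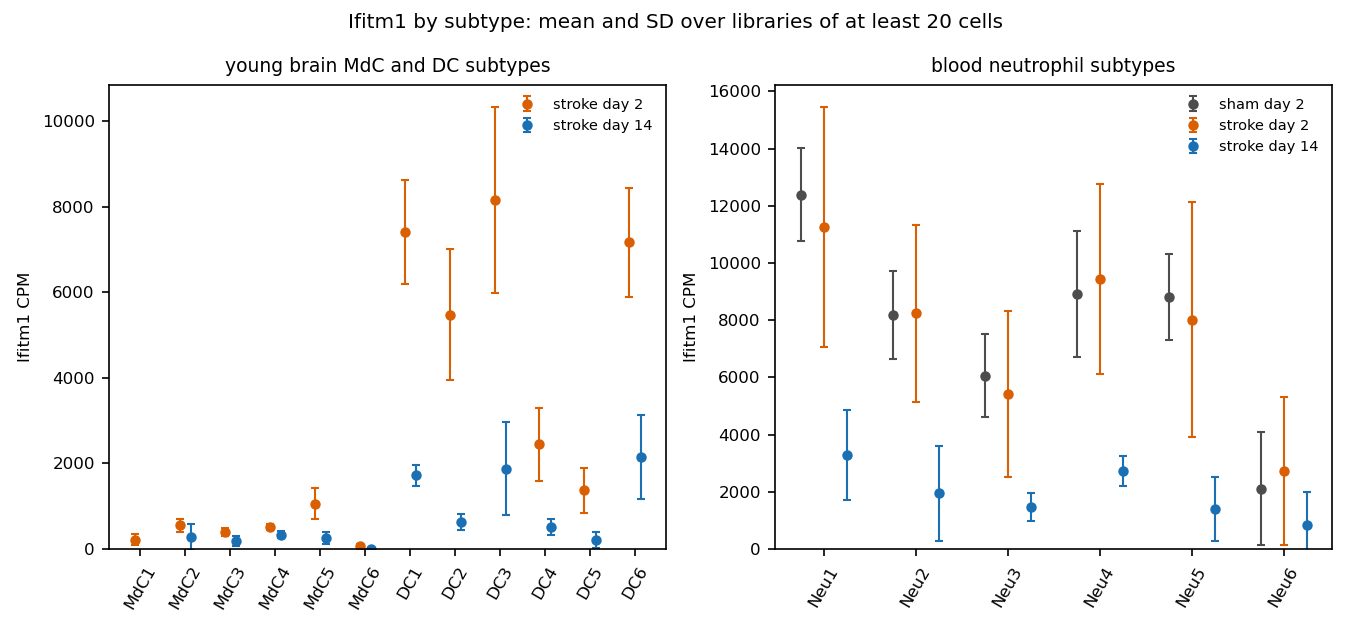
Mean CPM of Ifitm1 with its SD by subtype, for monocyte-derived cells MdC1 to MdC6 and dendritic cells DC1 to DC6 of young brain at day 2 and day 14 and for blood neutrophils Neu1 to Neu6 in 3 groups, where at least 2 libraries had 20 cells. Each dendritic subtype drawn had its higher mean at day 2, and each neutrophil subtype had its lowest mean at day 14.

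In brain cells annotated as dendritic, which present antigen to T cells, all 4 members rose at day 2, where 0.687% of the 4365 genes tested were called higher. Ifitm1 was at 739, 194, 63.3 and 137 CPM in sham, at 5221, 5714, 6974 and 7826 CPM at day 2, and at 1144, 1386, 1003 and 922 CPM at day 14. The 3 groups did not overlap. The change was 4.45 ± 0.55 at day 2 (edgeR adjusted p = 0.0023), and 5.64 without sham replicate 1 (edgeR adjusted p = 7.33e-05). Ifitm1 then fell by 2.51 ± 0.49 from day 2 to day 14 (edgeR adjusted p = 0.0277, with 0.458% of genes called lower), while day 14 against sham missed the threshold (1.94 ± 0.50, edgeR adjusted p = 0.0758, with 1.53% called); without sham replicate 1 it was called at 3.11 (edgeR adjusted p = 0.0091), and DESeq2 called it with all libraries (0.00861).

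Ifitm2 in dendritic cells was at 1546, 1011, 491 and 685 CPM in sham, at 3028, 3164, 3617 and 3814 CPM at day 2, and at 1101, 1215, 1364 and 1465 CPM at day 14, so that day 2 was apart from both other groups and day 14 lay within the sham range. It rose by 1.86 ± 0.31 at day 2 (edgeR adjusted p = 0.0126) and fell by 1.40 ± 0.30 to day 14 (edgeR adjusted p = 0.0425). Ifitm3 went from 2150, 1381, 657 and 1182 CPM to 4678, 3923, 5183 and 5196 CPM (1.82 ± 0.32, edgeR adjusted p = 0.0138), and was at 3261, 2928, 3029 and 2446 CPM at day 14, apart from both other groups but not called against either (edgeR adjusted p = 0.099 against sham and 0.399 against day 2; DESeq2 called the first, 0.0151). Ifitm6 rose from 583, 102, 187 and 96.8 CPM to 981, 687, 1308 and 1507 CPM (2.16 ± 0.46, edgeR adjusted p = 0.0413) and had 420, 322, 505 and 295 CPM at day 14.

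Several of these calls were close to the threshold. The day 2 call on Ifitm6 was lost in 8 of 12 fits that left out a library (edgeR adjusted p up to 0.106) and without TMM scaling (0.0527), and its rise was 3.28 without sham replicate 1 (0.00459) and 2.76 without the top 10% of cells by counts (0.00217). The call on Ifitm3 was lost without sham replicate 4 (0.0501), and the falls to day 14 of Ifitm1 and Ifitm2 in 6 and 10 of 12 fits (edgeR adjusted p up to 0.122 and 0.19). That of Ifitm2 was also lost with counts rounded up (0.0647) and without the top 10% of cells by counts (0.0583). The monocyte markers that exceed dendritic markers in this class summed to 2242 to 2895 CPM in sham, 2828 to 6380 CPM at day 2 and 3413 to 5880 CPM at day 14, and dendritic markers to 1262 to 1967, 722 to 1327 and 1038 to 2147 CPM; their part in the rise was not tested. Neutrophil markers, whose cells hold most Ifitm1 elsewhere, reached 337 CPM in a sham library and at most 41.4 CPM at day 2.

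Within subtypes, Ifitm1 at day 2 was at 8158 CPM in DC3, 7408 CPM in DC1, 7161 CPM in DC6, 5475 CPM in DC2, 2450 CPM in DC4 and 1371 CPM in DC5. At day 14 the same subtypes held 1874, 1724, 2159, 630 (DC2), 519 (DC4) and 212 CPM (DC5). DC6 had the most Ifitm3, with 7621 CPM at day 2 and 5697 CPM at day 14, and DC5 the least of these 6, with 1839 and 868 CPM. Blood cells annotated as dendritic held little Ifitm1: 340 and 0 CPM in 2 sham libraries, 1.75 CPM in 1 library at day 2, and 13.3, near 0 and 49.2 CPM at day 14. Their Ifitm3 at day 14 was 3461, 1948 and 1693 CPM. With 1 blood library at day 2, brain and blood dendritic cells were not compared by a test.

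Brain granulocytes, mostly neutrophils by their markers, had less Ifitm6 after stroke. It was at 6090, 8292, 3104 and 5681 CPM in sham, at 1617, 1047, 1756 and 2152 CPM at day 2, and at 94.6, 312, 388 and 283 CPM at day 14. The 3 groups did not overlap. Ifitm6 fell by 2.00 ± 0.39 at day 2 (edgeR adjusted p = 0.00363, with 2.82% of 994 genes called lower), by 4.74 ± 0.46 at day 14 against sham (edgeR adjusted p = 1.03e-06, with 13.1% called lower) and by 2.74 ± 0.44 between the stroke times (edgeR adjusted p = 0.0017, with 2.41% called lower).

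Ifitm1 in brain granulocytes was not called at day 2 and fell by day 14. Its values were 4394, 5205, 6124 and 3040 CPM in sham, 3755, 2124, 8783 and 7888 CPM at day 2, and 1281, 936, 1188 and 1812 CPM at day 14. Day 2 surrounded the sham range (0.10 ± 0.40, edgeR adjusted p = 0.922), and day 14 lay below both other groups. The fall was 2.19 ± 0.43 against sham (edgeR adjusted p = 0.00091) and 2.29 ± 0.43 against day 2 (edgeR adjusted p = 0.00502). All calls on Ifitm1 and Ifitm6 in these cells held whichever library was left out. Ifitm2 averaged 3808, 3188 and 2391 CPM and Ifitm3 1468, 1299 and 1425 CPM in sham, day 2 and day 14, with no call. Without day 14 replicate 4 or day 2 replicate 2, Ifitm2 was called lower at day 14 against sham (edgeR adjusted p up to 0.0495), as it was with a replicate block (0.0345), with a term for the mitochondrial split (0.0291) or without the top 10% of cells by counts (0.0338).

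Neutrophil markers fell at both steps, as Ifitm6 did, whereas Ifitm1 was not called at day 2 and Ifitm2 and Ifitm3 had no call. The markers summed to 222555 to 290324 CPM in sham, 112907 to 204835 CPM at day 2 and 54652 to 70971 CPM at day 14, and their part in the falls was not tested. The 2 day 2 libraries of low mitochondrial share held the lower Ifitm1 (mean 2939 CPM against 8335 CPM in the other 2) and Ifitm2 (1667 against 4709 CPM). Within the subtype Gran1, Ifitm6 was at 4278 CPM in sham and 2744 CPM at day 2, while Ifitm1 was at 6111 and 10114 CPM. Within Gran2, from day 2 to day 14, Ifitm6 went from 767 to 276 CPM and Ifitm1 from 4796 to 1613 CPM. Gran4, with 60 sham cells, had 9118 CPM of Ifitm6 and 311 CPM of Ifitm1 in the 1 library with enough cells.

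**Figure D4:**
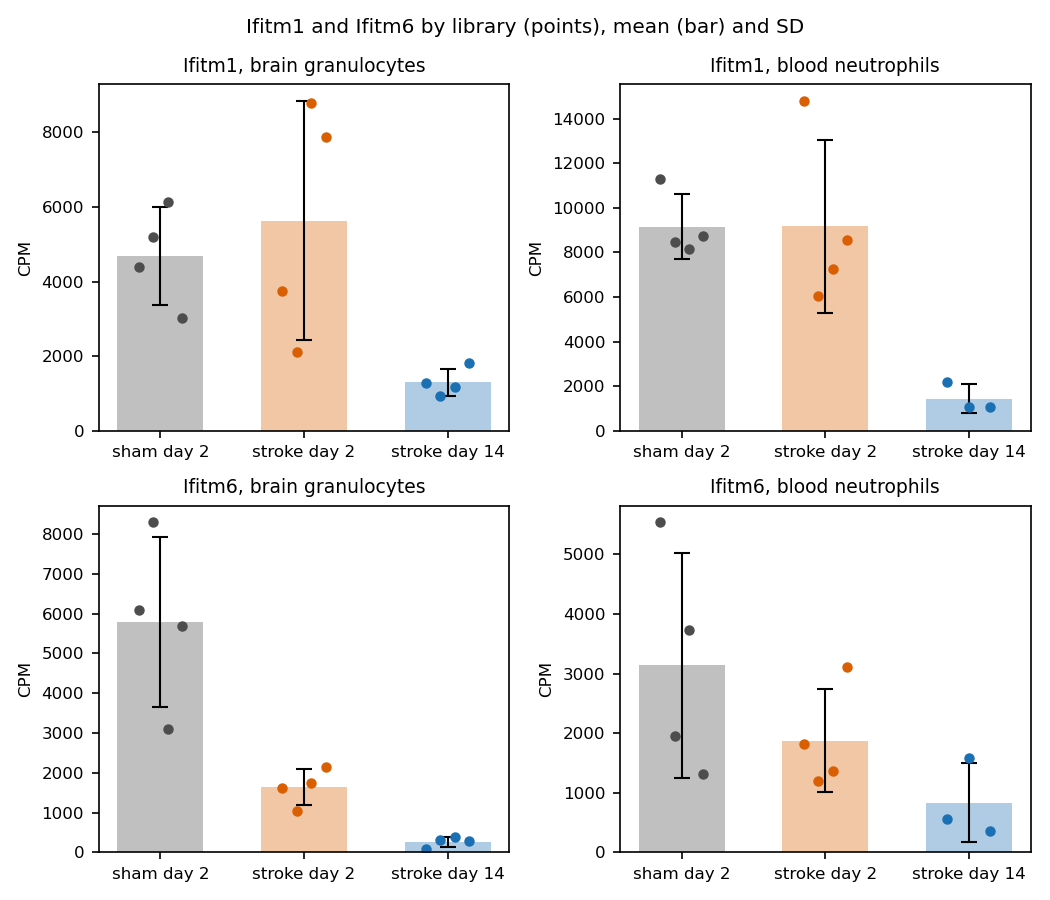
Mean CPM of Ifitm1 and Ifitm6 with SD (bars) and each library (points) in brain granulocytes and blood neutrophils after sham surgery at day 2, stroke at day 2 and stroke at day 14. Ifitm1 at day 14 lay below both other groups in all 4 brain and all 3 blood libraries, while brain Ifitm6 was already lower at day 2.

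In blood neutrophils, no member was called at day 2 and all 4 were lower at day 14 than in sham. Ifitm1 was at 11306, 8467, 8158 and 8718 CPM in sham, at 14791, 6067, 7277 and 8542 CPM at day 2, and at 2181, 1090 and 1060 CPM at day 14. The 3 day 14 libraries lay far below the other 8. Ifitm1 fell by 3.01 ± 0.41 against sham (edgeR adjusted p = 0.00105, with 3.8% of 4944 genes called lower) and by 3.03 ± 0.41 against day 2 (edgeR adjusted p = 0.00134, with 3.3% called lower), and both calls held whichever library was left out.

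Ifitm2 in blood neutrophils was at 4512, 3841, 4235 and 3897 CPM in sham, at 5102, 3530, 3619 and 3692 CPM at day 2, and at 3054, 1496 and 1887 CPM at day 14, again with no overlap. It fell by 1.29 ± 0.28 against sham (edgeR adjusted p = 0.0159) and by 1.24 ± 0.28 against day 2 (edgeR adjusted p = 0.0194). Ifitm3, at 1967, 1161, 2006 and 1812 CPM in sham and 1219, 924 and 694 CPM at day 14, fell by 1.22 ± 0.32 (edgeR adjusted p = 0.035). Ifitm6, at 5532, 1960, 3725 and 1322 CPM in sham and 555, 1586 and 362 CPM at day 14, fell by 2.24 ± 0.61 (edgeR adjusted p = 0.0407). The ranges of sham and day 14 overlapped for these last 2 genes.

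The calls on Ifitm2, Ifitm3 and Ifitm6 against sham were lost in 3, 5 and 5 of 11 fits that left out a library (edgeR adjusted p up to 0.0923, 0.176 and 0.175), and that on Ifitm2 against day 2 in 3 of 11 (up to 0.125). The call on Ifitm3 was also lost without TMM scaling (0.0509) and that on Ifitm6 with a replicate block (0.0741). Without day 14 replicate 2 the fall of Ifitm6 was 3.22 (−3.22, edgeR adjusted p = 0.0162). At day 2 against sham edgeR called 0 of 4944 genes (0%, with 209 at an unadjusted p under 0.05), and across blood types it called 0 of 10 member tests, with 0 at an unadjusted p under 0.05 and 0 called by DESeq2. Neutrophil markers summed to 198530 to 302058 CPM in sham, 169717 to 264456 CPM at day 2 and 112285 to 189942 CPM at day 14.

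The mean of Ifitm1 was lowest at day 14 in each neutrophil subtype drawn in the plot by subtype, while the subtype Neu3 held 285 cells in sham and 2111 of the 2922 cells at day 14. Mean Ifitm1 in sham, day 2 and day 14 was 6065, 5423 and 1455 CPM in Neu3, 12384, 11254 and 3285 CPM in Neu1, and 8173, 8235 and 1947 CPM in Neu2. Neu6 had the least Ifitm1 (2102, 2722 and 843 CPM) and the most Ifitm6 (9427, 6870 and 3627 CPM). The blood class of eosinophils and basophils had 12986 and 4121 CPM of Ifitm1 in sham, 12994 and 8050 CPM at day 2, and 1995, 3319 and 4467 CPM at day 14, with no call (−1.64 ± 0.49 against day 2, edgeR adjusted p = 0.3, with 0.277% of genes called). Within it, basophils averaged 10983 CPM at day 2 and 4951 CPM at day 14, and eosinophils gave a pooled 10841 CPM over 21 cells at day 2 and 674 CPM over 72 cells at day 14.

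Blood monocytes expressed Ifitm3, Ifitm2 and Ifitm6 and edgeR gave 0 calls on them, as did DESeq2, with 0, 0 and 1 of 3 at an unadjusted p under 0.05 and 0%, 0.254% and 0.537% of 6706 genes called at day 2 against sham, day 14 against sham and day 14 against day 2. Ifitm3 was at 2694, 2000, 3712 and 3857 CPM in sham, 2929, 1714, 2433 and 2793 CPM at day 2, and 4194, 3698 and 3710 CPM at day 14. Day 14 lay above day 2 without overlap and overlapped the sham range (0.61 ± 0.26 against day 2, edgeR adjusted p = 0.564). Ifitm2 averaged 1585, 1430 and 1282 CPM and Ifitm6 1341, 1148 and 1467 CPM. Ifitm1 was at most 18.0 CPM in any blood monocyte library.

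At day 2, brain monocyte-derived cells were compared with blood monocytes of the same time, as separately prepared samples. Ifitm1 had 4337 counts in the brain cells and 0.127 in the blood cells, and was called higher in the brain cells (edgeR adjusted p = 1.49e-05, with 13.4% of genes called higher). No fold is given, since the size depends on how small fractional counts are treated: with each cell's counts rounded up the log2 difference was 1.74 (edgeR adjusted p = 0.00295). Ifitm6 was lower in the brain cells by 1.01 ± 0.36 (−1.01, edgeR adjusted p = 0.0563) and Ifitm3 higher by 0.67 ± 0.34 (edgeR adjusted p = 0.175), neither called. DESeq2 called Ifitm6 (adjusted p = 0.0289), as did edgeR without day 2 brain replicate 2, 3 or 4 (up to 0.0492), and Ifitm3 was called without replicate 2 (0.0435). Brain granulocytes and blood neutrophils at day 2 gave 0 calls on the 4 members with edgeR, with 0 at an unadjusted p under 0.05 and 0 by DESeq2, where 9.16% of genes were called, and Ifitm1 differed by −0.69 ± 0.49 and Ifitm6 by −0.21 ± 0.40.

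Aged brain was compared at day 2 against sham, in 3 against 2 libraries. Of 16 member tests, 1 was called higher and 1 lower. Ifitm1 in monocyte-derived cells was at 163 CPM (female) and 34.9 CPM (male) in sham and at 666 (female), 1346 (male) and 577 CPM (female) at day 2, a rise of 3.67 ± 0.76 (edgeR adjusted p = 0.0177, with 2.31% of genes called higher and a median of 0.44 over all genes), and of 3.03 without TMM scaling (0.0474), where that median was −0.22. Ifitm6 in granulocytes was at 4087 CPM (female) and 4805 CPM (male) in sham and at 776 (female), 1852 (male) and 1123 CPM (female) at day 2, a fall of 2.04 ± 0.49 (edgeR adjusted p = 0.0296, with 0.642% called lower). Neither pair of ranges overlapped, both calls were lost without either sham library (edgeR adjusted p up to 0.225 and 0.297), and without the female sham library the rise of Ifitm1 was 5.56 (0.0925). The call on Ifitm6 was also lost without either female day 2 library, with no filter on low counts (edgeR adjusted p = 0.294) and without the top 10% of cells by counts (0.0951).

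Ifitm3 in aged microglia was at 45.8 and 89.5 CPM in sham, at 838, 502 and 628 CPM at day 2 and at 472 CPM in the 1 day 14 library. The day 2 libraries lay above sham, with a difference of 3.43 ± 0.99 that was not called (edgeR adjusted p = 0.0829, with 2.3% of genes called). It was called when young sham replicate 1, which shares the fit, was left out (edgeR adjusted p = 0.0115). In aged endothelial cells it was at 1268 and 1338 CPM in sham, 2416, 2330 and 2553 CPM at day 2 and 1967 CPM at day 14 (0.94 ± 0.30 at day 2, edgeR adjusted p = 0.187, with 0.606% called; DESeq2 adjusted p = 0.0345). Aged dendritic cells had 341 CPM of Ifitm1 in the 1 sham library with enough cells, 6069, 10983 and 7303 CPM at day 2 and 310 CPM at day 14, with no test. A test of whether the day 2 change differed with age found 0 of 16 member tests by edgeR, with 0 at an unadjusted p under 0.05 and 0 by DESeq2. In the 5 types tested 0% of all genes were called for this difference, so the count of 0 says nothing about the members in particular. The difference for Ifitm3 in microglia was −2.39 ± 1.17 (edgeR adjusted p = 0.768). All young mice were male, so a sex term rests on the aged libraries; with it both aged calls stood (edgeR adjusted p = 0.0242 for Ifitm1 and 0.0254 for Ifitm6).

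A list of 24 other interferon-stimulated genes was set beside the members in the same fits. In microglia, 18 of 23 tested were higher at day 2, against 15.7% of all genes (median change 3.23, all genes −0.05). At day 14 against sham 21 were higher, against 10.6% of all genes (4.77, all genes −0.04). At day 14 against day 2 it was 9, against 3.47% of all genes (1.26, all genes 0.10). Those named by size were Rsad2, the antiviral protein viperin, at 6.16 ± 0.66 (edgeR adjusted p = 3.86e-05) and Zbp1, a sensor of nucleic acids, at 6.07 ± 0.56 (1.54e-05) at day 2, and Oasl2, an oligoadenylate synthetase-like gene, at 7.82 ± 0.65 (3.93e-06) at day 14. Between the stroke times Ifi44 was higher by 4.71 (edgeR adjusted p = 0.00616) and Oasl2 by 1.89 (0.0229), where Ifitm3 had 0.46 and Ifitm2 −0.49, neither called.

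In the types where members fell from day 2 to day 14, no listed interferon-stimulated gene was called lower. Endothelial cells had 6 of 19 called higher, against 5.07% of all genes (median 0.73, all genes 0.02), led by Rsad2 at 1.81 ± 0.38 (edgeR adjusted p = 0.00804) and Ifih1, a sensor of viral RNA, at 1.26 ± 0.31 (0.0183), beside the falls of Ifitm1 and Ifitm2. Dendritic cells had 0 of 20 called by edgeR, with 4 at an unadjusted p under 0.05 (median 0.60, all genes 0.03), and granulocytes 1 of 5, against 1.81% of all genes, Isg15, a ubiquitin-like modifier, at 1.88 ± 0.38 (edgeR adjusted p = 0.00813). Blood neutrophils had 2 of 19 higher, against 1.4% of all genes (median 0.39, all genes 0.03), Rsad2 at 1.55 (edgeR adjusted p = 0.0181) and Cmpk2, a mitochondrial nucleotide kinase, at 1.42 (0.0164). At day 2 against sham the endothelial list had 1 of 19 called, Bst2, the virus-tethering protein, at 1.10 ± 0.22 (edgeR adjusted p = 0.00576), a share near the 6.89% of all genes called higher there. The dendritic list had 2 of 20 called, against 0.687% of all genes, Oasl2 at 4.40 ± 0.89 (edgeR adjusted p = 0.0316) and Usp18, which removes Isg15 from proteins, at 2.84 (0.0361). At day 14 against sham, 8 of 20 were called in dendritic cells (1.53% of all genes) and 4 of 5 in granulocytes (26.1%). Endothelial cells had 0 of 19 called there (0% of all genes), with 12 at an unadjusted p under 0.05 (6.1% of all genes). Blood neutrophils had 1 of 19 called (5.99% of all genes), with 7 at that unadjusted level (20.2%).

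**Figure D5:**
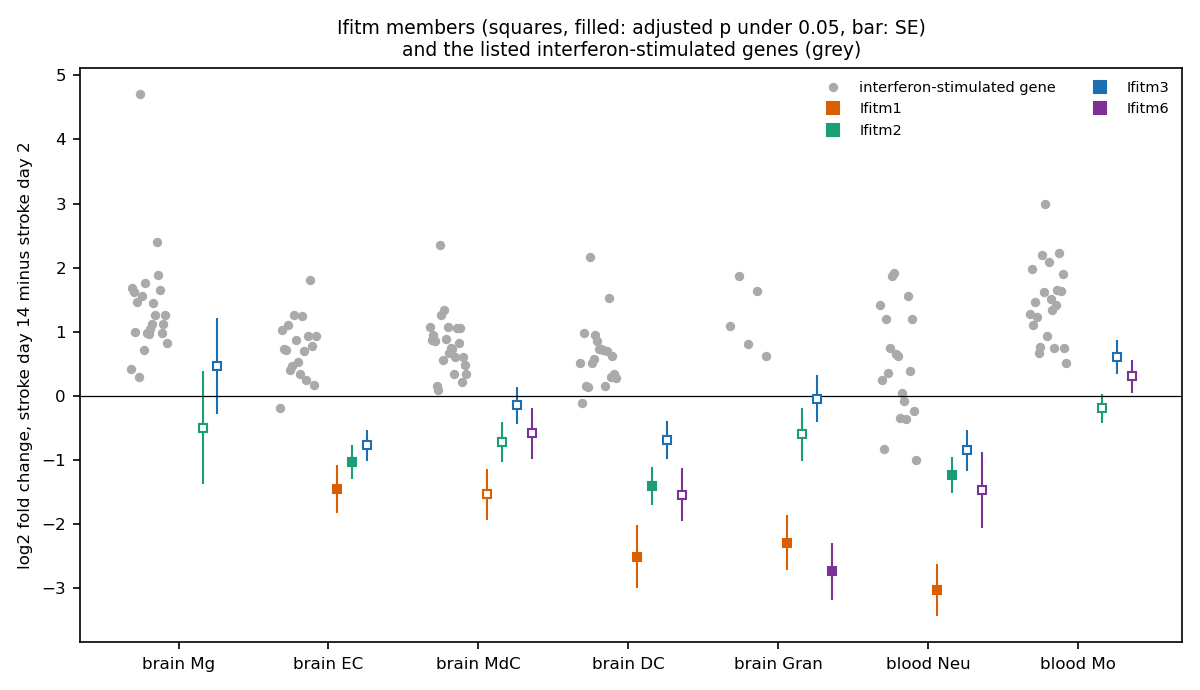
Fitted log2 fold change of stroke day 14 against stroke day 2 for the listed interferon-stimulated genes (grey points) and the members (squares) in 7 cell types. In endothelial cells, brain granulocytes and blood neutrophils the members called at an adjusted p under 0.05 were lower and the called list genes higher, and in dendritic cells the called members were lower and 0 of 20 list genes were called.

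Monocyte-derived cells had 12 of 24 listed genes higher at day 2, against 5.66% of all genes (median 1.91, all genes 0.29), 20 at day 14 (2.71, all genes 0.28, 4.21% of all genes called higher) and 3 at day 14 against day 2, against 0.829% of all genes. Rsad2 was at 4.42 ± 0.43 there at day 2 (edgeR adjusted p = 8.72e-05). Against blood monocytes, 19 of 23 were higher in the brain cells, against 13.4% of all genes, led by Rsad2 at 4.88 and Isg15 at 4.71. Blood monocytes themselves had 0, 2 and 1 of 22 called at day 2 against sham, day 14 against sham and day 14 against day 2. At an unadjusted p under 0.05 there were 0, 17 and 18 of 22. Of all genes, 0%, 0.254% and 0.537% were called, and 2.82%, 5.46% and 7.71% reached that unadjusted level. Ifit3, which binds foreign RNA as part of a complex, was at 2.999 at day 14 against day 2 (edgeR adjusted p = 0.0195). In aged brain at day 2 against sham, 13 of 21 were higher in microglia, against 1.78% of all genes (median 2.81, all genes −0.02), and 4 of 23 in monocyte-derived cells, against 2.31% (2.44, all genes 0.44).

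Genes upstream of the members and partners of their products were counted as well, in lists of 4 to 9 genes. At day 2, 15.7% of all microglial genes were called higher and 15.7% lower, so counts of 1 to 3 genes describe these genes and are not read as results about the lists. Of 4 interferon receptor genes, microglia had Ifngr1, a chain of the interferon gamma receptor, lower at day 2 (−1.36 ± 0.26, edgeR adjusted p = 0.00199) and at day 14 (−0.89, 0.0296), and Ifnar2, a chain of the type I receptor, higher at day 14 (0.56, 0.0315). Endothelial cells had Ifnar1, its partner chain, lower at day 2 (−0.83 ± 0.23, edgeR adjusted p = 0.0287) and higher at day 14 against day 2 (1.04 ± 0.23, 0.0104). Of 9 signal transducers, microglia had 3 higher and 1 lower at day 2, with Irf7, a regulator of interferon genes, at 4.16 ± 0.40 (edgeR adjusted p = 2.13e-05) and the kinase Jak1 at −1.24 (0.0211). At day 14 against sham 3 of the 9 were called, in either direction, against 15.2% of all genes. At day 14 against day 2, 4 were higher, against 3.47% of all genes. Of 6 genes whose products bind or modify IFITM proteins, Zdhhc20, a palmitoyltransferase, was lower in microglia at day 2 (−1.08 ± 0.21, edgeR adjusted p = 0.00219) and Vapa, a membrane contact protein, higher in brain monocyte-derived cells than in blood monocytes (0.80, 0.0299), with no other call on this list in the types described here.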

How the data were processed

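Drop-seq libraries of young and aged mouse brain and young mouse blood were analysed. The authors deposited expected counts per gene and cell (fractional, not normalized), the counts of genes detected in each cell, the percent of mitochondrial counts and a cell type annotation at 2 levels. Genome build mm10 and Seurat are named in the submitters' processing notes, and the step that made counts fractional is not given in the sources used here. Expected counts were summed per library and type, for libraries with at least 20 cells of it, and rounded to whole numbers. Types with at least 2 libraries in each compared group were tested with edgeR 4.0.16 (glmQLFit, glmQLFTest, TMM scaling, filterByExpr, two-sided, Benjamini-Hochberg over all genes tested), all groups of a tissue sharing 1 fit. A call is an adjusted p under 0.05. Alternatives used DESeq2 1.42.0 in R 4.3.3, Python 3.11.15, pandas 2.3.3 and numpy 2.4.6, and figures matplotlib 3.10.9. Simulated 4-fold changes were recovered for 91% of 178 genes in brain endothelial cells and 98% of 200 genes in blood neutrophils at day 2. The simulation gave every gene the same fixed spread between libraries, not the spread of these data, and changed only genes above a set level. It therefore does not give the share of real changes that the fits recover. Scrublet marked 174 cells (0.163%), too few to be taken as working, so doublets are not resolved, and leaving out the 10% of cells with most counts in each library and type was added after seeing the data, as was a term for the libraries under 1% mitochondrial counts. Of each other gene list the text gives the counts and names the called genes of highest and lowest log2 fold change, at most 2 each way per comparison; other genes named from these lists were chosen after their values were seen. The members are named by family and not by a threshold, but they, the lists and the tests were chosen with earlier results of these data known. The result of 1 listed gene is not reported here.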

Additional observations from a re-analysis of the deposited data

Results flagged for a closer look

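In groups of 4 libraries, 1 library can lie far from the other 3. Of 82 groups of member values examined, 10 held such a library, where chance gives about 1 in 20. Day 2 replicate 3 of young brain accounted for 3 of them: Ifitm3 in microglia was 1418 CPM against 283 to 407 CPM, Ifitm2 in microglia was 340 CPM against 51.3 to 75.6 CPM, and Ifitm1 in border-associated macrophages was 378 CPM against 0 to 31.1 CPM. Day 2 replicate 2 gave low values in monocyte-derived cells, with 1983 CPM of Ifitm3 against 3482 to 3728 CPM and 197 CPM of Ifitm6 against 531 to 590 CPM. Sham replicate 4 had 126 CPM of both Ifitm2 and Ifitm3 in brain T cells, where the other libraries had 0. Day 14 replicate 4 had 219 CPM of Ifitm2 in endothelial cells against 470 to 516 CPM. In blood, day 2 replicate 1 had 5102 CPM of Ifitm2 in neutrophils against 3530 to 3692 CPM, and also the highest Ifitm1 of its group (14791 CPM). It was the blood library of low mitochondrial share (0.130%), and no term for that split was fitted in blood. Without it the fall of Ifitm2 from day 2 to day 14 was not called (edgeR adjusted p = 0.0744). Sham replicate 3 of blood had 94.1 CPM of Ifitm6 in T cells against at most 11.8 CPM.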

How the results depend on the processing

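None of the 30 called member results changed direction under any alternative run, while 32 of the uncalled ones had the other sign in at least 1. In young brain at day 2 against sham, 11 member calls became 9 to 12 when 1 library was left out in turn. At day 14 against sham, 4 calls became 4 to 5, and 7 with counts rounded up or without the top 10% of cells by counts. At day 14 against day 2, 6 calls became 2 to 8. In blood, 4 calls at day 14 against sham became 2 to 5, and 2 calls at day 14 against day 2 became 1 to 2, or 4 with no filter on low counts. In aged brain, 2 calls became 0 to 3 when a library was left out, 0 with at least 50 cells per library (where 8 of the 16 tests could be run, neither called one among them), 4 with counts rounded up or with no filter (which lost Ifitm6 in granulocytes), and 1 without the top 10% of cells. Between brain and blood, 1 call became 1 to 3 when a library was left out, 2 with DESeq2, without TMM, with no filter or with a replicate block, and 3 with counts rounded up. Each count under an alternative takes in every member test that could be run there, also ones absent from the main fits. Such counts are therefore not always like for like, above all with no filter or with counts rounded up. The counts of 0, in blood at day 2 and for the difference with age, stayed at 0 in all alternatives run. The check that every same-numbered pair of libraries correlates over 0.1 was not met (at most 6 of 12 pairs in any brain type checked, with single correlations up to 0.809). It cannot exclude pairing by replicate number, since the median correlation was higher for same-numbered pairs than for others. The medians were 0.109 against −0.00444 in endothelial cells and 0.164 against −0.107 in blood monocytes. With a replicate block 11, 6 and 8 calls were made for young brain at day 2, at day 14 against sham and at day 14 against day 2. Gained at day 14 against sham, beside Ifitm2 in granulocytes, was Ifitm1 in dendritic cells (edgeR adjusted p = 0.0391). Gained at day 14 against day 2 were Ifitm1 in monocyte-derived cells (0.00391) and Ifitm6 in dendritic cells (0.0437). For blood the block gave 3 and 2 calls at day 14 against sham and against day 2. Without TMM scaling the genes called higher and lower were 1273 and 2118 in microglia at day 2 (1588 and 1594 with it), 670 and 2755 at day 14 against sham (1071 and 473), 180 and 175 in brain monocyte-derived cells at day 2 (457 and 85), 198 and 62 in granulocytes at day 14 against sham (129 and 130) and 293 and 99 in blood neutrophils at day 14 against sham (108 and 188). Rounding counts up lowered the microglial changes at day 2 to 3.82 for Ifitm3 and 2.92 for Ifitm2, and those at day 14 against sham to 4.80 and 2.87, since sham values near 0 then counted as whole. With a replicate block the day 2 change of Ifitm2 in microglia was 5.63 (edgeR adjusted p = 0.000861). Sex as a covariate changed no call. Over single member tests, leaving out a library gave 55 lost and 15 gained calls and 1397 unchanged ones. Low counts limit Ifitm1 and Ifitm6 in microglia and the aged comparisons, with 2 sham libraries.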

Other observations

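The other 3 genes of the family in these tables were scarce. Ifitm5, known for its part in bone mineralization, had 62.5 counts over all young brain libraries. Ifitm7 had 194 counts in young brain, most of them in dendritic cells (28.4 CPM), and 425 in blood, where it fell in neutrophils at day 14 against sham (−2.90 ± 0.67, edgeR adjusted p = 0.0191). Ifitm10 had a pattern of its own: its 732 counts in young brain lay mostly in microglia (34.3 CPM), where the 4 members were near 0 in sham, and it fell there at day 2 (−1.71 ± 0.32, edgeR adjusted p = 0.00201). It was highest per count in NK cells, at 102 CPM in young brain and 234 CPM in blood.

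Over 42 profile entries (young brain and blood types by group) and 9922 genes, the gene most like Ifitm3 was Ifitm2 (Pearson r = 0.920 of log2(CPM + 1)), followed by Ralb (0.860) and Ltbr (0.852). Ifitm6 was most like Mcemp1 (0.951), Gpr141 (0.932) and Mefv (0.927), genes of myeloid cells. Ifitm1 was most like Cpne2 (0.867), Mxd1 (0.855) and Flot1 (0.837), and its correlation with Ifitm3 was 0.548. These entries share libraries and depth, so the values are descriptions with no test.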
